A study of Mus musculus with 4 samples.

Results

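Reads on 9 genes for collapsin response mediator proteins, microtubule-associated proteins and a growth cone protein were followed in C2C12 myoblasts with and without knockdown of *Hnrnpl*. The genes were *Dpysl2*, *Dpysl3*, *Crmp1*, *Map1a*, *Map1b*, *Map4*, *Mapt*, *Mapre1* and *Gap43*. They were taken by name from the 56748 gene IDs of the deposited counts, and each symbol matched 1 ID. C2C12 is an established mouse myoblast line, and *Hnrnpl* encodes hnRNP L, an RNA-binding protein that recognizes CA repeats and CA-rich RNA. The scrambled group received a scrambled control shRNA and the knockdown group a cocktail of 3 shRNAs against *Hnrnpl*. All cells of both groups were undifferentiated myoblasts that carried an eGFP plasmid and were selected with 3 µg per mL puromycin. Each group held 2 libraries of nanopore direct RNA sequencing, and both came from different passages of 1 selected stable line. The p-values below therefore measure the spread between passages of a line, and a difference between the lines and the effect of the shRNA cannot be told apart. The labels give batch 1 to scrambled 1 and knockdown 1, and batch 2 to scrambled 2 and knockdown 2.

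Microtubules are stiff polymers of tubulin whose plus ends switch between growth and shrinkage. Collapsin response mediator proteins (CRMPs) bind tubulin and help microtubules grow, and were found as the intracellular relay of semaphorin 3A, a repulsive guidance cue. Structural microtubule-associated proteins such as MAP1A, MAP1B, MAP4 and tau lie along the lattice and stabilize it. EB1, the product of *Mapre1*, rides on growing plus ends and recruits other proteins there, and GAP-43 sits under the membrane of growth cones. In muscle, MAP4 and EB1 are known for the parallel microtubule arrays that form as myoblasts elongate and fuse, whereas tau, CRMP1 and GAP-43 are best known from neurons.

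The libraries held 1229424 to 1676911 reads counted on genes, 56.5% to 57.8% of the reads in each file. At these depths a count of 0 allows up to 1.79 to 2.44 counts per 1000000 counted reads (CPM). Levels below are CPM on library sizes scaled by the TMM method of edgeR. *Hnrnpl* itself had 331 ± 89.3 CPM (SD, n = 2) in scrambled and 194 ± 30.5 CPM (SD, n = 2) in knockdown, a fall by 0.78 on the log2 scale (adjusted p = 0.0112 in edgeR), which no longer passed without scrambled 2 (-0.48, adjusted p = 0.194) or without knockdown 1 (-0.62, adjusted p = 0.150). In the 2 DESeq2 parametric fits the adjusted p of *Hnrnpl* was 0.0567 and 0.0670. Of 8 myoblast markers 7 had reads, although *Pax7* was at 0 and *Myod1* had 1 read in all. Their summed level was 673 and 796 CPM in scrambled 1 and 2 against 435 and 374 CPM in knockdown 1 and 2. RNA came from whole cultures, so fewer cells of a type and less RNA per cell cannot be told apart.

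Of the 9 genes, *Dpysl3* was lower in knockdown, at 0.469 of its scrambled level, and no other gene of the group passed the test. A gene was called when its adjusted p was under 0.05, its log2 fold change beyond 0.5 in either direction and its mean normalized count over 10. By this rule 5.55% of the 8670 genes tested were called, 3.22% lower and 2.33% higher in knockdown. Of the 9 genes, 6 had enough reads for the test and 1 was called. All 6 estimates lay below 0, with a median log2 fold change of -0.16 against -0.00059 over all tested genes. The groups did not overlap for 3 of the 6 (*Dpysl3*, *Map1b* and *Map4*), where 52.4% of all tested genes had groups that did not overlap. Reads on the 9 genes together numbered 1026 and 1516 in scrambled 1 and 2 against 884 and 809 in knockdown 1 and 2, which is 0.0739% and 0.0904% of the counted reads in scrambled and 0.0643% and 0.0658% in knockdown.

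**Figure D1:**
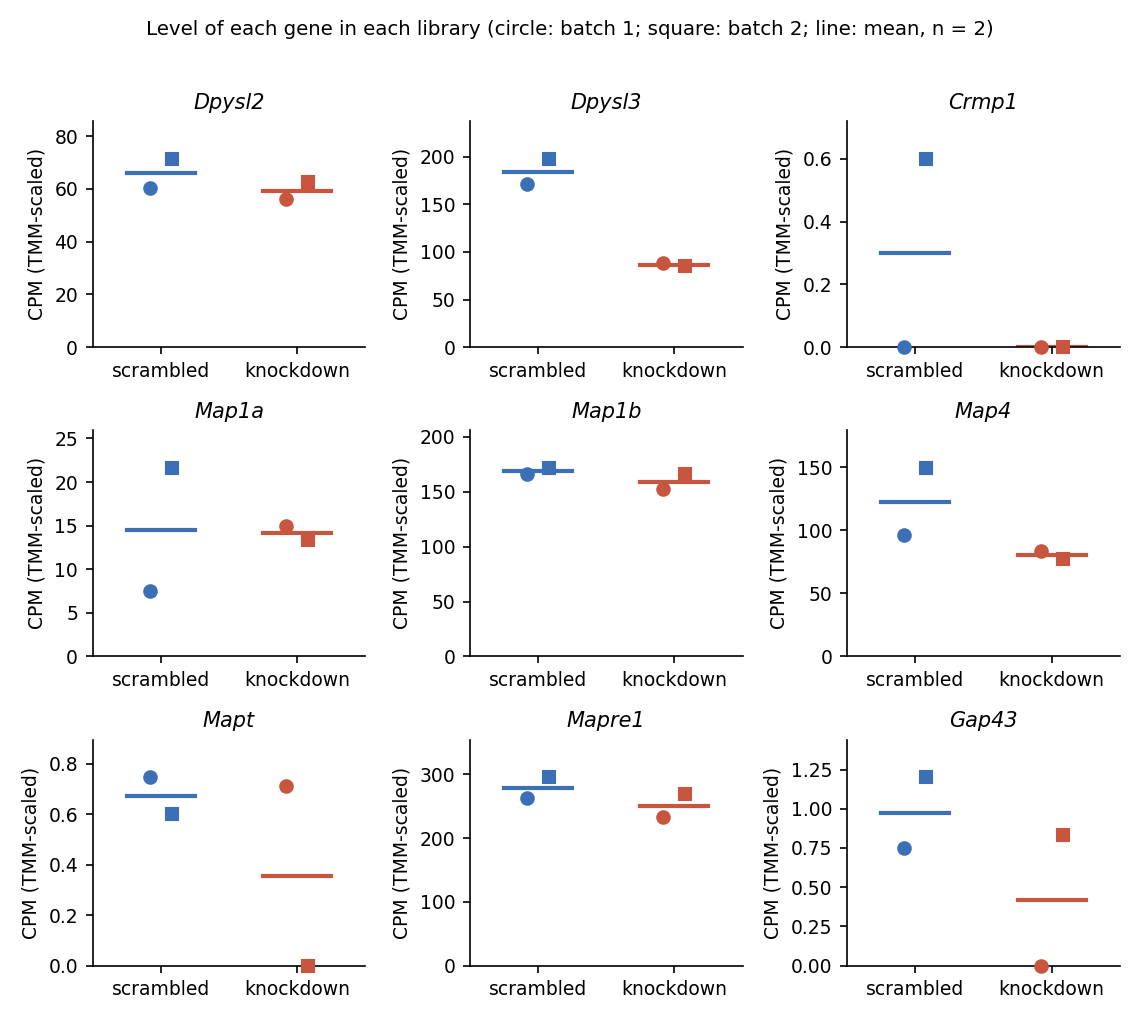
Level of each of the 9 genes in each library, in CPM on TMM-scaled library sizes, with scrambled in blue and knockdown in red, circles for batch 1, squares for batch 2 and lines for the mean of 2 libraries; each panel has its own axis from 0. *Dpysl3* is at 171 and 198 CPM in scrambled and at 88.1 and 85.0 CPM in knockdown, whereas *Crmp1*, *Mapt* and *Gap43* rest on 0 to 2 reads in each library.

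*Dpysl3* encodes CRMP4, a CRMP that also binds and bundles actin. The gene (ENSMUSG00000024501.21) spans bases 43454049 to 43571532 of chromosome 18 in GRCm39 (reverse strand), with 8 annotated transcripts and a canonical transcript of 5.41 kb. It had 229 and 330 reads in scrambled 1 and 2 against 124 and 102 in knockdown 1 and 2. Both knockdown libraries were below both scrambled libraries, and the gap between the groups was wider than the spread within either. The level was 185 ± 19.1 CPM (SD, n = 2) in scrambled and 86.6 ± 2.18 CPM (SD, n = 2) in knockdown. The log2 fold change of *Dpysl3* was -1.09 (standard error, SE, 0.16, 95% interval -1.43 to -0.76, adjusted p = 0.000378 in edgeR), to 0.469 of the scrambled level (95% interval 0.372 to 0.591).

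The fall of *Dpysl3* was present in both batches, with log2 ratios of knockdown to scrambled of -0.96 in batch 1 and -1.22 in batch 2, each from 1 library per group. It was called in all 17 refits, with log2 fold changes from -1.19 to -0.82 and adjusted p from 1.21e-07 to 0.00968. The smallest of these changes came when the median change of each chromosome was taken out, since the tested genes on the chromosome of *Dpysl3* had a median log2 fold change of -0.28. No exon base of *Dpysl3* overlaps another annotated gene on its own strand, and 0.442% overlap one on the opposite strand.

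*Dpysl2* encodes CRMP2, the best studied member of the family, which carries tubulin to growing microtubule ends and loses that hold when phosphorylated by CDK5 or GSK3. The gene (ENSMUSG00000022048.9) spans bases 67040313 to 67148522 of chromosome 14 (reverse strand), with 4 annotated transcripts. It had 81 and 119 reads in scrambled 1 and 2 against 79 and 75 in knockdown 1 and 2. These are 60.5 and 71.4 CPM against 56.1 and 62.5 CPM, so the groups overlapped. The log2 fold change was -0.16 (SE 0.18, 95% interval -0.55 to 0.22, adjusted p = 0.657 in edgeR), an interval that still allows a level between 0.683 and 1.17 of that in scrambled. Genes of chromosome 14 had a median of -0.36, and after removal of the chromosome medians the estimate of *Dpysl2* changed sign to 0.20. On the opposite strand, *Gm5464* and *Pnma2* overlap 8.57% of its exon bases, and the strand setting of the counting is not given in the sources used here.

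*Crmp1*, for CRMP1, had 1 read in scrambled 2 and 0 reads in the other 3 libraries. The gene (ENSMUSG00000029121.17) spans bases 37399284 to 37449481 of chromosome 5 (forward strand). On the opposite strand, *Evc* overlaps 6.53% of its exon bases. Summed over the group, 1 read in scrambled is 0.333 CPM (95% Poisson interval 0.00842 to 1.85), and 0 reads in knockdown allow up to 1.15 CPM at 3 counts over the group. The remaining family genes *Dpysl4* and *Dpysl5* were listed at 0 in all 4 libraries. Reads counted on the CRMP family were therefore almost entirely those of *Dpysl3* and *Dpysl2*. Reads set aside as ambiguous between genes or of low mapping quality are not in these counts.

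Within a library, *Dpysl3* gave most of the CRMP reads in both groups. Its share of the reads on *Dpysl2*, *Dpysl3* and *Crmp1* was 73.9% (229 of 310 reads, 95% Wilson interval 68.7 to 78.4) in scrambled 1 and 73.3% (330 of 450, 69.1 to 77.2) in scrambled 2. In knockdown it was 61.1% (124 of 203, 54.2 to 67.5) in library 1 and 57.6% (102 of 177, 50.3 to 64.7) in library 2. Each scrambled interval lies above both knockdown intervals. These intervals cover counting error only, and an exact permutation test of 2 against 2 libraries cannot give a two-sided p below 0.333. Of the reads on all 9 genes, *Dpysl3* had 22.3% and 21.8% in scrambled 1 and 2 against 14.0% and 12.6% in knockdown 1 and 2.

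**Figure D2:**
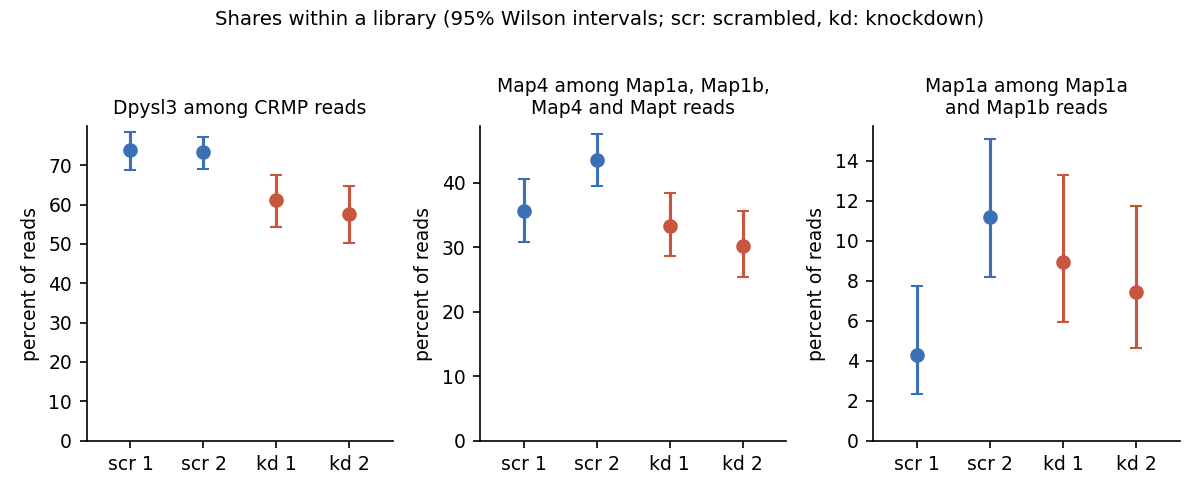
Share of reads within each library in percent, with 95% Wilson intervals, for *Dpysl3* among the reads of *Dpysl2*, *Dpysl3* and *Crmp1* (left), *Map4* among the reads of *Map1a*, *Map1b*, *Map4* and *Mapt* (middle) and *Map1a* among the reads of *Map1a* and *Map1b* (right). The *Dpysl3* share is 73.9% and 73.3% in scrambled (scr, blue) and 61.1% and 57.6% in knockdown (kd, red), while the scrambled libraries differ from each other in the other shares.

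*Map1b* encodes a large MAP that is made early in development and is processed into a heavy and a light chain. The gene (ENSMUSG00000052727.7) spans bases 99557954 to 99653137 of chromosome 13 (reverse strand), and its canonical transcript of 11.9 kb is the longest of the 9. It had 223 and 286 reads in scrambled 1 and 2 against 214 and 199 in knockdown 1 and 2, or 167 and 172 CPM against 152 and 166 CPM. The highest knockdown library was just below the lowest scrambled library. The log2 fold change was -0.09 (95% interval -0.40 to 0.22, adjusted p = 0.773 in edgeR), and *Map1b* was not called in any of 17 refits. The median change of chromosome 13 was 0.23, and after removal of the chromosome medians the estimate was -0.32.

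*Map1a* encodes the MAP1 protein that prevails in mature neurons. The gene (ENSMUSG00000027254.14) spans bases 121120071 to 121141313 of chromosome 2 (forward strand). On the opposite strand, *Ppip5k1* overlaps 2.53% of its exon bases. Reads on *Map1a* were few, with 10 and 36 in scrambled 1 and 2 against 21 and 16 in knockdown 1 and 2. The scrambled libraries, at 7.47 and 21.6 CPM, lay on either side of the knockdown libraries at 14.9 and 13.3 CPM. The log2 fold change of -0.09 had a 95% interval from -0.95 to 0.77 (adjusted p = 0.928 in edgeR). It was 0.91 without scrambled 2 and -0.61 without scrambled 1, and in none of these fits was the gene called. In batch 1 alone the log2 ratio of knockdown to scrambled was 1.00 and in batch 2 alone it was -0.70.

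*Map1a* gave a small share of the MAP1 reads in every library. Of the reads on *Map1a* and *Map1b*, 4.29% (10 of 233, 95% Wilson interval 2.35 to 7.72) came from *Map1a* in scrambled 1 and 11.2% (36 of 322, 8.19 to 15.1) in scrambled 2. The knockdown libraries lay between these values, at 8.94% (21 of 235, 5.92 to 13.3) and 7.44% (16 of 215, 4.63 to 11.7).

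*Map4* encodes the MAP that is found in most tissues outside the brain. The gene (ENSMUSG00000032479.16) spans bases 109751712 to 109913023 of chromosome 9 (forward strand) and has 81 annotated transcripts. It had 129 and 249 reads in scrambled 1 and 2 against 118 and 93 in knockdown 1 and 2. These are 96.3 and 149 CPM against 83.9 and 77.5 CPM, so the groups did not overlap, but the scrambled libraries lay further from each other than scrambled 1 lay from either knockdown library. The level was 123 ± 37.5 CPM (SD, n = 2) in scrambled and 80.7 ± 4.47 CPM (SD, n = 2) in knockdown. The log2 fold change was -0.62 (SE 0.19, 95% interval -1.02 to -0.21), with an unadjusted p of 0.00501 and an adjusted p of 0.0655 in edgeR, so *Map4* was not called.

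The value of *Map4* rested on scrambled 2. Without that library the log2 fold change was -0.26 (adjusted p = 0.636 in edgeR), and without scrambled 1 it was -0.89 (adjusted p = 0.00221). With no filter on low counts *Map4* was also called (-0.62, adjusted p = 0.0219). Batch 1 alone gave -0.20 and batch 2 alone -0.95. Chromosome 9 had a median of -0.37, and after removal of the chromosome medians the change of *Map4* was -0.25. Its share of the reads on *Map1a*, *Map1b*, *Map4* and *Mapt* was 35.5% and 43.5% in scrambled 1 and 2 against 33.3% and 30.2% in knockdown 1 and 2.

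**Figure D3:**
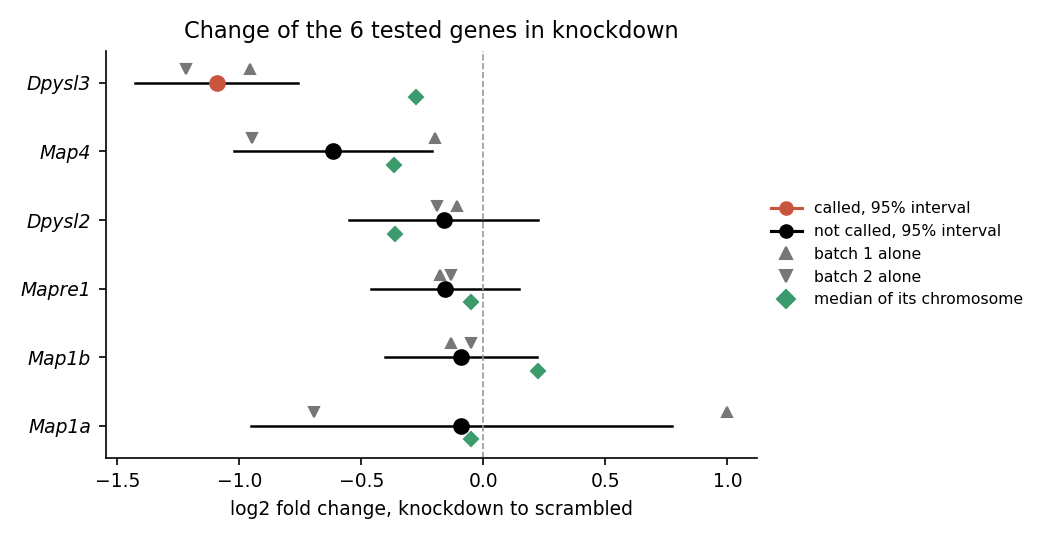
Log2 fold change of knockdown to scrambled for the 6 tested genes from edgeR, as circles with 95% intervals (red for the called gene, black for the others), with the log2 ratio in batch 1 (upward triangles) and batch 2 (downward triangles) and the median log2 fold change of the gene's chromosome (green diamonds). *Dpysl3* at -1.09 is far below its chromosome median of -0.28, and the 2 batches of *Map1a* lie at 1.00 and -0.70.

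Of the 9 genes 2, *Map4* and *Dpysl3*, have a canonical transcript that holds an unbroken run of at least 8 alternating C and A bases, the kind of sequence that hnRNP L is known to bind. Such a run reads CACACACA or ACACACAC at its shortest and was searched on the transcript strand only. Each of the 2 transcripts holds 1 run of 8 bases, and both runs lie in the 3' UTR. The *Map4* site is printed here as the example, from the GRCm39 genome and the GENCODE vM39 annotation, at chr9:109912504-109912533 on the forward strand. It is given as 30 bases, 5' to 3', with the CA run in capitals.
*Map4*: agctctctaagCACACACAaagaattgctg
The run begins at base 8671 of the canonical transcript of 9178 bases.

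Runs of this kind were common, and 2 of 9 genes is close to their share among all tested genes. Both genes with a run were among the 6 of the 9 that were tested, so on tested genes alone the count is 2 of 6. Of 8662 tested genes with a canonical transcript, 22.1% held at least 1, against 19.4% of the 279 genes called lower and 29.4% of 201 genes called higher. *Hnrnpl* itself held none. A match in the sequence is a description of the transcript, and binding was not measured here. Of the 3 shRNA targets, each 21 bases long, the longest stretch shared with a transcript of the 9 genes was 13 bases, between the third target and *Mapre1*, and all other stretches were 6 to 10 bases.

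*Mapt* encodes tau. The gene (ENSMUSG00000018411.18) spans bases 104122024 to 104222946 of chromosome 11 (forward strand) and has 87 annotated transcripts. It had 1 read in scrambled 1, 1 in scrambled 2, 1 in knockdown 1 and 0 in knockdown 2. Summed over a group, this is 0.666 CPM (95% Poisson interval 0.0806 to 2.40) in scrambled and 0.384 CPM (0.00971 to 2.14) in knockdown. Both sums are at or below 3 counts, the number that a count of 0 allows, so no fold is given and a difference was not detectable at this depth.

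*Mapre1* encodes EB1, the plus-end tracking protein, and had the most reads of the 9 genes. The gene (ENSMUSG00000027479.15) spans bases 153583194 to 153615249 of chromosome 2 (forward strand). It had 352 and 492 reads in scrambled 1 and 2 against 327 and 323 in knockdown 1 and 2, or 263 and 295 CPM against 232 and 269 CPM. The groups overlapped, since knockdown 2 was above scrambled 1. The log2 fold change was -0.16 (SE 0.14, 95% interval -0.46 to 0.15, adjusted p = 0.567 in edgeR), and with 0 inside it the interval allows 0.727 to 1.11 of the scrambled level. The batches gave -0.18 and -0.13, and the gene was not called in any of 17 refits. The pseudogenes *Gm8545* and *Gm8804* match 776 and 804 aligned bases of *Mapre1* at 94.1% and 92.4% identity, and both were listed at 0 reads in all libraries.

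*Gap43* encodes GAP-43, a calmodulin-binding protein of growing axon tips. The gene (ENSMUSG00000047261.10) spans bases 42068805 to 42161086 of chromosome 16 (reverse strand). It had 1 and 2 reads in scrambled 1 and 2 against 0 and 1 in knockdown 1 and 2. The summed reads are 0.998 CPM in scrambled (95% Poisson interval 0.206 to 2.92) and 0.384 CPM in knockdown (0.00971 to 2.14), both at or under the level that 3 counts give, and a difference was not detectable.

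Levels were ordered per length, in CPM per kb of the canonical transcript. In scrambled, *Mapre1* (37.9 ± 3.11, SD, n = 2) and *Dpysl3* (34.1 ± 3.53) stood highest, and these neighbours differed by little more than the SD of either. *Dpysl2* (14.6 ± 1.71), *Map1b* (14.2 ± 0.302) and *Map4* (13.4 ± 4.09) followed, and each of these differed from the next by less than the larger of their SDs. *Map1a* (1.26 ± 0.866) was lower still, and *Gap43*, *Mapt* and *Crmp1* were at 0.653, 0.106 and 0.102. In knockdown, *Mapre1* was at 34.1 ± 3.55 (SD, n = 2) and *Dpysl3* at 16.0 ± 0.404, so that *Dpysl3* was followed by *Map1b* at 13.4 ± 0.822 and *Dpysl2* at 13.1 ± 0.998, both lower by more than the SD of either. *Map4* was at 8.79 ± 0.488 and *Map1a* at 1.22 ± 0.0972 in knockdown. In direct RNA sequencing a molecule gives at most 1 read, so a level per kb can understate long transcripts such as those of *Map1a* and *Map1b*. Without division by length, *Map1b* (169 CPM) and *Map4* (123 CPM) stand above *Dpysl2* (66.0 CPM) in scrambled, and the places of *Mapre1* and *Dpysl3* there are as above. In knockdown without this division, *Map1b* (159 CPM) stands above *Dpysl3* (86.6 CPM) and follows *Mapre1* (251 CPM). *Map4* (80.7 CPM) and *Dpysl2* (59.3 CPM) are lower than *Dpysl3* there.

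**Figure D4:**
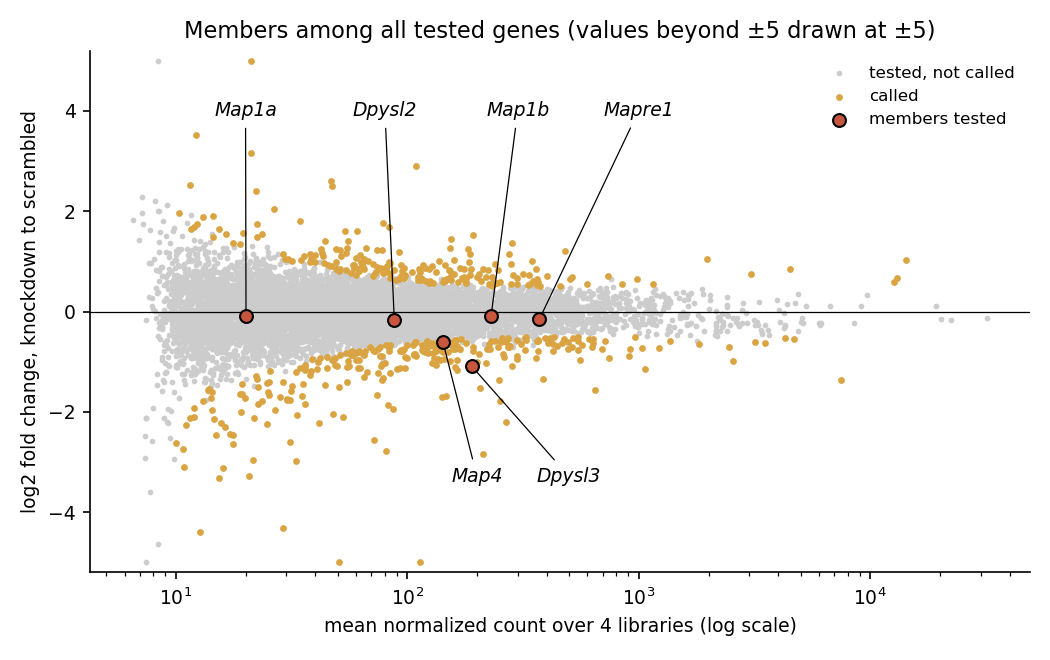
Log2 fold change of knockdown to scrambled (vertical axis) against the mean normalized count over 4 libraries (horizontal axis, log scale) for the 8670 tested genes, with called genes in orange and the 6 tested genes of the group as large red points. *Dpysl3* at -1.09 lies among the called genes below the cloud, *Map4* at -0.62 at its edge, and the other 4 near 0.

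The 4 libraries of *Dpysl3* were compared with those of all other tested genes by the Euclidean distance between log2 CPM values centred on each gene's own mean. The 3 nearest genes were *Tsc22d3* at a distance of 0.105, *Cpap* at 0.107 and *Mbnl2* at 0.135. They were picked for a pattern like that of *Dpysl3*, so a fall of similar size follows from the choice. A link between these genes and *Dpysl3* was not tested. *Mbnl2*, which encodes a muscleblind RNA-binding protein that acts in splicing, had 258 and 375 reads in scrambled 1 and 2 against 138 and 128 in knockdown 1 and 2. It fell by 1.03 on the log2 scale (adjusted p = 0.000577 in edgeR). *Tsc22d3*, the gene of the glucocorticoid-induced leucine zipper, had 33 and 43 reads in scrambled against 16 and 13 in knockdown, and fell by 1.18 (adjusted p = 0.0367). That call was lost with any 1 library left out (adjusted p from 0.0533 to 0.150), with chromosome medians removed (adjusted p = 0.0747) and in all 4 DESeq2 fits (adjusted p from 0.240 to 0.654). *Cpap*, a centriole gene, had 12 and 16 reads against 5 and 4, with a log2 fold change of -1.41 and an adjusted p of 0.0974.

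Genes that act with these proteins were read from 6 lists of 150 genes in all, of which 134 had reads and 109 were tested. Of these 109, 4 were called higher and 6 lower, which is 9.17% against 5.55% of all tested genes, and their median log2 fold change was -0.06. The lists were chosen with earlier results of these data known, so the shares called describe the lists and are no test of them. The calls of *Plxna1*, *Fyn*, *Ckap4*, *Sprr1a* and *Ttll7* were lost in all 4 DESeq2 fits (adjusted p from 0.0566 to 0.530), and that of *Ncam1* in the 2 with a parametric fit (adjusted p = 0.0770 and 0.0875).

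On the semaphorin route to the CRMPs, the ligand *Sema3a* and the plexin *Plxna1* rose and the kinase *Fyn* fell. Of the neuropilin co-receptor genes in this list, *Nrp1* had few reads, with 1 and 5 in scrambled 1 and 2 and 2 in each knockdown library. *Nrp2* had 77 and 111 reads in scrambled 1 and 2 against 126 and 103 in knockdown 1 and 2 and was not called. Activity of the route was not measured. This list was chosen with earlier results of these data known, so its share called is no test of the list. Of 27 genes listed 17 were tested, 2 were called higher and 1 lower (17.6%), against 5.55% of all tested genes, and the median log2 fold change was -0.43. The count was 1 without knockdown 1 and 5 without scrambled 1, where *Sema3b* (-1.39, adjusted p = 0.0458) and *Dyrk2* (-0.99, adjusted p = 0.0330) were also called lower. With chromosome medians removed, 1 was called higher and 2 lower. *Sema3a*, the repulsive cue through which CRMPs were found, had 30 and 34 reads in scrambled 1 and 2 against 90 and 79 in knockdown 1 and 2. It rose by 1.60 on the log2 scale (SE 0.22 and adjusted p = 0.000237 in edgeR), to 3.03 times the scrambled level, and was called in all 17 refits. *Plxna1*, the signalling subunit of its receptor, had 31 and 40 reads against 73 and 49 and rose by 0.98 (adjusted p = 0.0224). That call was lost without knockdown 1 (0.79, adjusted p = 0.186) and after removal of the chromosome medians (0.70, adjusted p = 0.146).

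*Fyn*, a tyrosine kinase that acts downstream of plexins and phosphorylates CRMPs, had 47 and 59 reads in scrambled against 26 and 17 in knockdown. The gene fell by 1.10 (log2; adjusted p = 0.0254 in edgeR), and the adjusted p was 0.0511 without scrambled 2, 0.0654 without knockdown 1 and 0.106 without knockdown 2.

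Of 35 genes of lattice-binding MAPs, 18 were tested and 1 was called (5.56%, against 5.55% of all tested genes), with a median log2 fold change of -0.01. *Map2*, *Map7*, *Dcx* and *Tppp* were among 9 genes of this list with no reads. The called gene was *Ckap4*, which links the endoplasmic reticulum to microtubules, with 294 and 366 reads in scrambled against 444 and 370 in knockdown (log2 fold change 0.51, adjusted p = 0.0356 in edgeR). It lies close to the threshold, and its call was lost with any 1 library left out (0.49 to 0.52, adjusted p = 0.0734 to 0.180), with the replicate block (adjusted p = 0.0672) and after removal of the chromosome medians (0.27). *Dclk1*, a doublecortin-like kinase, was not called (-0.71, adjusted p = 0.137) but was called lower without scrambled 2 (-1.03, adjusted p = 0.00812) and with the replicate block (-0.77, adjusted p = 0.0462). *Tpx2*, a spindle MAP, was at -0.17 (adjusted p = 0.576).

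Of 29 genes of plus-end tracking and dynein-linked proteins, 27 were tested and 0 were called by edgeR or in any of the 4 DESeq2 fits. In edgeR, 6 were at an unadjusted p under 0.05 (21.8% of all tested genes were), and the median log2 fold change was -0.01. Without scrambled 2, *Clasp1*, a plus-end stabilizer, was called higher (1.17, adjusted p = 0.0416, against 0.46 and 0.397 with all libraries). The most read were *Pafah1b1*, a dynein regulator, at -0.28 (adjusted p = 0.271) and *Dctn2*, a dynactin subunit, at 0.15 (adjusted p = 0.588). Of 20 kinases and phosphatases of MAPs, 14 were tested and 0 were called by edgeR or in any of the 4 DESeq2 fits, with 4 at an unadjusted p under 0.05 in edgeR, against the same 21.8%, and a median log2 fold change of -0.07. *Cdk1*, the mitotic kinase, was at -0.03 (adjusted p = 0.923) and *Ppp2r1a*, the scaffold of phosphatase 2A, at 0.40 (adjusted p = 0.108). Among 21 genes for severing and modification of tubulin, 16 were tested and 1 was called (6.25%, against 5.55% of all tested genes). This was *Ttll7*, a tubulin polyglutamylase, with 43 and 54 reads in scrambled against 90 and 66 in knockdown. It rose by 0.89 (adjusted p = 0.0163), and without knockdown 1 by 0.77 (adjusted p = 0.134).

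Among growth cone proteins near GAP-43, all called genes were lower in knockdown. This list, too, was chosen with earlier results of these data known, so its share called is no test of the list. Of 18 genes 17 were tested and 5 were called (29.4%, against 3.22% of all tested genes called lower), with a median log2 fold change of -0.19. The count was 3 without scrambled 2. *Dbn1*, for the actin-binding protein drebrin, was not called (-0.76, adjusted p = 0.111) but was called lower without scrambled 1 (-0.93, adjusted p = 0.0469) and without knockdown 2 (-1.17, adjusted p = 0.0418). *Basp1* and *Marcks* encode membrane-bound proteins that, like GAP-43, are substrates of protein kinase C or gather phosphoinositides under the membrane. *Basp1* had 759 and 897 reads in scrambled 1 and 2 against 480 and 403 in knockdown 1 and 2 and fell by 0.71 on the log2 scale (SE 0.13 and adjusted p = 0.00341 in edgeR). *Marcks* had 205 and 283 reads against 112 and 77 and fell by 1.16 (SE 0.17, adjusted p = 0.000356). Both were called in all 17 refits.

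*Ncam1*, the neural cell adhesion molecule that myoblasts also carry, had 66 and 72 reads in scrambled against 20 and 23 in knockdown. It fell by 1.47 (SE 0.27, adjusted p = 0.00231 in edgeR). *Sprr1a*, a gene induced in regenerating axons, had 17 and 23 reads against 1 and 4 and fell by 2.73 (adjusted p = 0.00635), which no longer passed without scrambled 2 (adjusted p = 0.0596) or knockdown 1 (-1.97, adjusted p = 0.142) and lost its call without scrambled 1 (-2.79), where its mean count was under 10. *Cfl1*, an actin-severing factor with 5025 and 5701 reads against 3809 and 2726, fell by 0.53 (adjusted p = 0.0391), and this was not called with the replicate block (adjusted p = 0.0750), with the chromosome medians removed (-0.30) or without scrambled 1 (-0.46), scrambled 2 (-0.60, adjusted p = 0.0654) or knockdown 2 (-0.41). *Calm2*, for the calmodulin that GAP-43 binds, was at 0.40 (adjusted p = 0.0899).

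**Figure D5:**
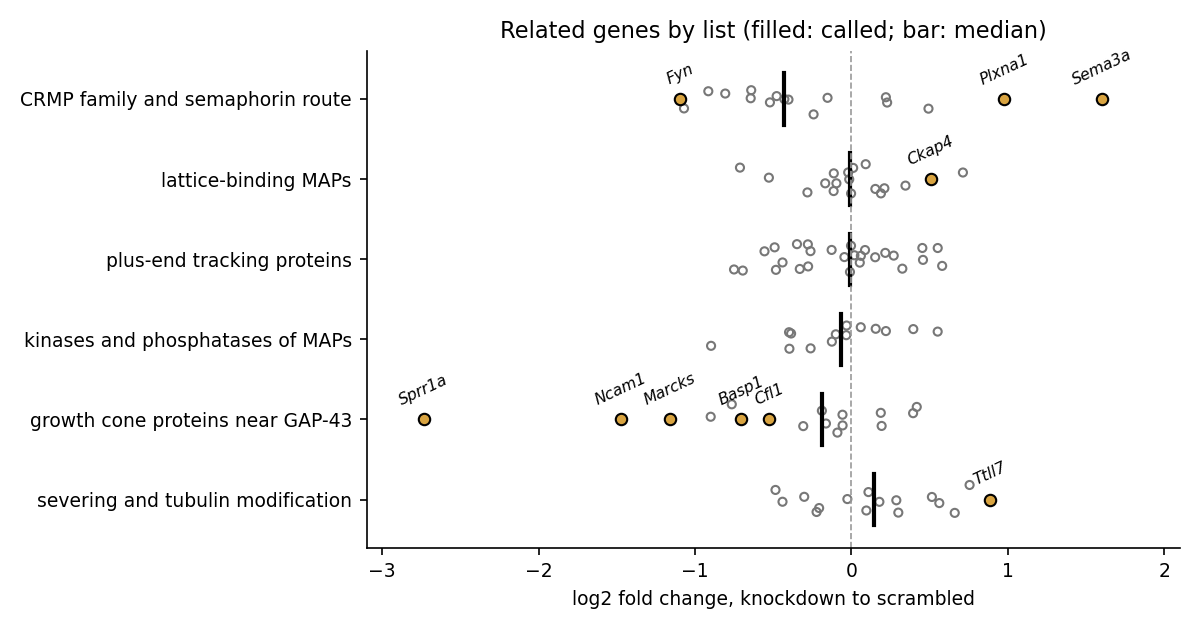
Log2 fold change of knockdown to scrambled for the tested genes of the 6 lists, 1 point per gene, with called genes filled and named and the median of each list as a black bar; vertical position within a list has no meaning. The 5 called growth cone genes all lie below 0, at -2.73 to -0.53, whereas *Sema3a*, *Plxna1*, *Ckap4* and *Ttll7* lie above 0.

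Of 14 neuronal markers 8 had reads and 4 were tested, of which 3 were called, all lower, against 3.22% of all tested genes. Their summed level was 392 and 356 CPM in scrambled 1 and 2 against 71.8 and 82.5 CPM in knockdown 1 and 2. *Rbfox3*, *Snap25*, *Stmn3*, *Ina*, *Elavl3* and *Elavl4* were at 0 in all libraries. *Tubb3*, the neuronal beta-tubulin, had 150 and 149 reads against 20 and 18 and fell by 2.77 on the log2 scale (adjusted p = 4.82e-07 in edgeR). *Stmn2*, a tubulin-sequestering stathmin, had 257 and 217 reads in scrambled and 0 in both knockdown libraries, at least 137-fold lower against 3 counts on the summed reads of the knockdown group. *Nefl*, a neurofilament gene, had 78 and 152 reads against 54 and 42 and fell by 1.04 (adjusted p = 0.00895). The *Nefl* call was lost without scrambled 2 (-0.67, adjusted p = 0.169), without knockdown 1 (adjusted p = 0.0663), with chromosome medians removed (-0.68, adjusted p = 0.127) and in the 2 DESeq2 parametric fits (adjusted p = 0.183 and 0.208). *Nefm*, also a neurofilament gene, had 36 and 71 reads against 22 and 37 and was not called (-0.63, adjusted p = 0.254).

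Of the 8 myoblast markers 4 were tested and 3 were called, all lower, against 3.22% of all tested genes. *Cdh15*, the muscle cadherin, had 113 and 152 reads in scrambled against 25 and 14 in knockdown and fell by 2.55 (adjusted p = 2.03e-06 in edgeR). *Chrna1*, an acetylcholine receptor subunit, had 255 and 409 reads against 120 and 78 and fell by 1.53 (adjusted p = 3.40e-05). *Des*, for desmin, fell by 0.56 (adjusted p = 0.0308), but the call was lost without scrambled 2 (-0.41, adjusted p = 0.297), without knockdown 1 (adjusted p = 0.0970) or 2 (adjusted p = 0.117), with the replicate block (adjusted p = 0.0526) and in the 2 DESeq2 parametric fits (adjusted p = 0.208 and 0.234). *Myf5*, a myogenic regulatory factor, had 157 and 190 reads against 158 and 113 and was not called (-0.16, adjusted p = 0.615). The part of these markers in the change of *Dpysl3* was not tested. Markers of glia and macrophages were few, with 1.49 to 4.17 CPM summed over 7 Schwann cell and glial genes and 1.80 to 5.84 CPM over 6 macrophage genes. Of 10 myotube genes 2 had reads. Of 8 fibroblast genes 4 had reads. Their summed level was 588 and 440 CPM in scrambled 1 and 2 against 469 and 298 CPM in knockdown 1 and 2. *Col3a1* had 775 and 718 reads in scrambled against 648 and 347 in knockdown, while *Col1a1*, *Thy1*, *Lum* and *Tcf21* were at 0. The 1 fibroblast gene tested was not called (log2 fold change -0.42).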

How the data were processed

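RNA of 2 scrambled and 2 *Hnrnpl* knockdown C2C12 cultures was sequenced as nanopore direct RNA. Guppy was used by the authors for basecalling, minimap2 2.17 for mapping to GRCm39, SAMtools for counting mapped reads and HTSeq 0.9.1 for counting per gene, and the deposited files hold raw counts. The annotation release and the strand setting are not given in the sources used here. Names and positions came from GENCODE vM39, which held 56017 of the 56748 gene IDs. Reads that HTSeq set on no gene were left out of library sizes. Of the reads in each file 16.0% to 16.5% were ambiguous between genes and 22.7% to 23.8% had low mapping quality.

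Counts were fitted in edgeR 4.0.16 (R 4.3.3) with TMM factors, filterByExpr and the quasi-likelihood test on group alone, with Benjamini-Hochberg adjustment over 8670 genes. Thresholds for a call were those of the study. The 9 genes and all lists were chosen with earlier results of these data known. Named were the 9 genes, *Hnrnpl*, list genes with an adjusted p under 0.05, the 2 most read tested genes of each list, and the 3 genes nearest in pattern to each called gene of the 9. The most read genes of the semaphorin list are not reported here. Marker genes, *Nrp1*, *Nrp2* and list genes called only in a refit, named with values, were chosen after their values were seen. So were the genes named as listed at 0. Alternatives were the DESeq2 1.42.0 Wald and likelihood-ratio tests with local and parametric fits, RLE and upper quartile factors, other filters, a robust fit, the replicate block, removal of chromosome medians or of a transcript length trend, other thresholds, each library left out, and legacy = FALSE in edgeR, which was added after the data were seen. Where a library was left out, the lone library of its group was assumed to vary like the other group.

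The labels pair the libraries by batch. Across 8670 genes, the deviation of scrambled 1 from its group mean correlated at -0.02 with that of knockdown 1, and at 0.01 across the 3711 genes whose counts reached 50 in each library. Genes are not independent replicates. Poisson and Wilson intervals cover counting error only. Splicing, qPCR and fly data were not used here.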

Additional observations from a re-analysis of the deposited data

Results flagged for a closer look

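*Map1a* moved in opposite directions in the 2 batches. The log2 ratio of knockdown to scrambled was 1.00 in batch 1, from 10 and 21 reads, and -0.70 in batch 2, from 36 and 16 reads. Each batch holds 1 library of each group, so the difference between the batches was not tested.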

How the results depend on the processing

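Of 102 refitted values of the 6 tested genes, 97 kept their direction and their side of the threshold. *Map4* became called with no filter and without scrambled 1, so that 2 of the 9 genes were called there instead of 1, and the count lay between 1 and 2 with single libraries left out. *Dpysl2* turned to 0.20 with chromosome medians removed, and *Map1a* to 0.00176 with the replicate block and to 0.91 without scrambled 2 (-0.61 to 0.91 with single libraries left out). The causes were not tested. Over all genes 481 were called, against 228 and 115 by the DESeq2 Wald test with local and parametric fit, 222 and 112 by its likelihood-ratio test, 285 with chromosome medians removed, 187 at a log2 fold change beyond 1, and 194 to 433 with single libraries left out (fewest without knockdown 1). For the related lists, 10 calls became 5, 4, 5 and 4 in the same order of DESeq2 fits, 5 beyond a log2 fold change of 1, and 5 to 10 with single libraries left out (fewest without knockdown 1). The replicate block, which follows the batches, gave 484 calls over all genes, 1 among the 9 genes and 9 in the related lists. Among other named genes, *Dctn2* was at -0.088 and *Ttll12* at 0.079 with chromosome medians removed. In the main fit *Ttll12* was at -0.025 (adjusted p = 0.951 in edgeR) and *Sirt2* at 0.29 (adjusted p = 0.427), and neither was called. With single libraries left out, *Cdk1* ranged from -0.15 to 0.086, *Ttll12* from -0.078 to 0.015 and *Sirt2* from -0.019 to 0.52, with the sign changing without scrambled 1 for *Cdk1*, without scrambled 1 or knockdown 1 (0.014) for *Ttll12* and without knockdown 1 for *Sirt2*. *Crmp1*, *Mapt* and *Gap43* had 0 to 2 reads in each library, too few for the test. For *Map1a* the scrambled libraries were at 7.47 and 21.6 CPM, and the 95% interval of its log2 fold change runs from -0.95 to 0.77.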
